A study of Mus musculus with 2 samples.

Results

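The genes described here are 10 genes of the response to low oxygen: the transcription factor subunits Hif1a and Epas1, the oxygen-sensing hydroxylases Egln1 and Egln3, and the target genes Vegfa, Adm, Ndrg1, Bnip3, Car9 and Pdk1. They were measured in mouse kidney at postnatal day 3, an age at which nephrons are still being formed. All probe sets whose annotation named exactly 1 gene, that gene being on this list, were taken, which gave 25 of the 45037 probe sets on the array. Together they read all 10 of these genes, out of 20660 genes named on the array. One sample was labelled wild type, with no strain named, and the other was labelled B6C3Fe a/a-bpck mutant. This mutant models polycystic kidney disease, in which fluid-filled cysts replace kidney tubules. Each sample was hybridised to 1 Affymetrix Mouse430_2 array, so the comparison rests on 2 arrays. The labels state neither the mutated gene nor how many animals gave each sample. Animals could not be compared with each other within a group, so no test was made, and each difference given here describes this pair of arrays.

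Cells sense oxygen through hydroxylases of the Egln family, which use oxygen to modify the alpha subunits of the hypoxia-inducible factors (HIF). The modified subunits are recognised by the von Hippel-Lindau protein Vhl and degraded. When oxygen is scarce the subunits persist, pair with Arnt and switch on genes for blood vessel growth, glycolysis and mitochondrial clearance. Oxygen thus acts mainly on the HIF protein, which arrays do not measure, while the target transcripts are the usual readout of the pathway. In kidney, Hif1a is used mainly by tubule cells and Epas1 by endothelial and interstitial cells.

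The HIF factors bind a short core that reads ACGTG or GCGTG. The promoters of 4 HIF-inducible genes are printed as examples of windows, at the outermost start of their gene, that hold the core. The sequences are the 250 bases before the annotated start of each gene, from RefSeq on GRCm38.p6, written 5′ to 3′ on the strand of the gene, with every match to either core, on either strand, in capitals. The Egln3 window is chr12:54203875-54204124 on the minus strand, Adm is chr7:110627407-110627656 on the plus strand, Bnip3 is chr7:138909507-138909756 on the minus strand and Car9 is chr4:43506776-43507025 on the plus strand.
Egln3: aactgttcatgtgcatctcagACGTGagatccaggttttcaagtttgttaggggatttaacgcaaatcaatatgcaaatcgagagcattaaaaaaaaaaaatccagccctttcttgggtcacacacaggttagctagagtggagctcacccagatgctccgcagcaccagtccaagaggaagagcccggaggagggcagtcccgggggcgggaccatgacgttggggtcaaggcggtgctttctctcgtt
Adm: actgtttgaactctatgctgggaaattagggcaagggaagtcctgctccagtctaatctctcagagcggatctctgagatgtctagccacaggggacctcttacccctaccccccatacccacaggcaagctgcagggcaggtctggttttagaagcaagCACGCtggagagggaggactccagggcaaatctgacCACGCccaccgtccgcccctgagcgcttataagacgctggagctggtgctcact
Bnip3: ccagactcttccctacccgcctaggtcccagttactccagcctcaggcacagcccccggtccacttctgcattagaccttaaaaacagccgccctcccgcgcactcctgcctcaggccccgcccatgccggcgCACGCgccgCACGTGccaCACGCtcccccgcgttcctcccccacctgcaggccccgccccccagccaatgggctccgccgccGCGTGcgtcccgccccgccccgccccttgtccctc
Car9: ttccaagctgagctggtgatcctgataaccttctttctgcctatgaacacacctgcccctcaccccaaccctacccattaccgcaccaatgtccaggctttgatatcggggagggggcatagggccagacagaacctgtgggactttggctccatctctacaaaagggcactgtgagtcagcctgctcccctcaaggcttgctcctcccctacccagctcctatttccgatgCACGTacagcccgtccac

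These windows held 1 match in Egln3, 2 in Adm, 5 in Bnip3 and 1 in Car9. In Bnip3 one pair of matches overlaps, because CACGTG reads as a core on both strands. The table of promoters had windows for 8 of the 10 genes, 10 windows in all since Pdk1 and Vegfa had several starts, and 8 of these windows held a match. At the outermost start of Vegfa there was none. A match was found in 38.6% of all 32851 promoter windows of the same length, so its presence is a description of the sequence and says nothing of binding. Epas1 and Ndrg1 were not matched to a window.

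Most of the hypoxia genes differed little between mutant and wild-type kidney. The exceptions by size were Epas1 and 1 probe set of Egln3, lower in the mutant array, and Vegfa and 1 probe set of Adm, higher. None of the 20 probe sets whose brighter array reached the median of all intensities (16.53, the filter used here) was 1.5-fold apart. Among all probe sets above that filter, the mutant array exceeded wild type by 1.5-fold or more in 2.2% and was 1.5-fold or more below it in 3.28%. At 1.2-fold, 1 of the 20 was higher and 2 were lower, against 10.4% and 13.9% of all probe sets. The plot of member intensities shows how closely most pairs coincide.

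**Figure D1:**
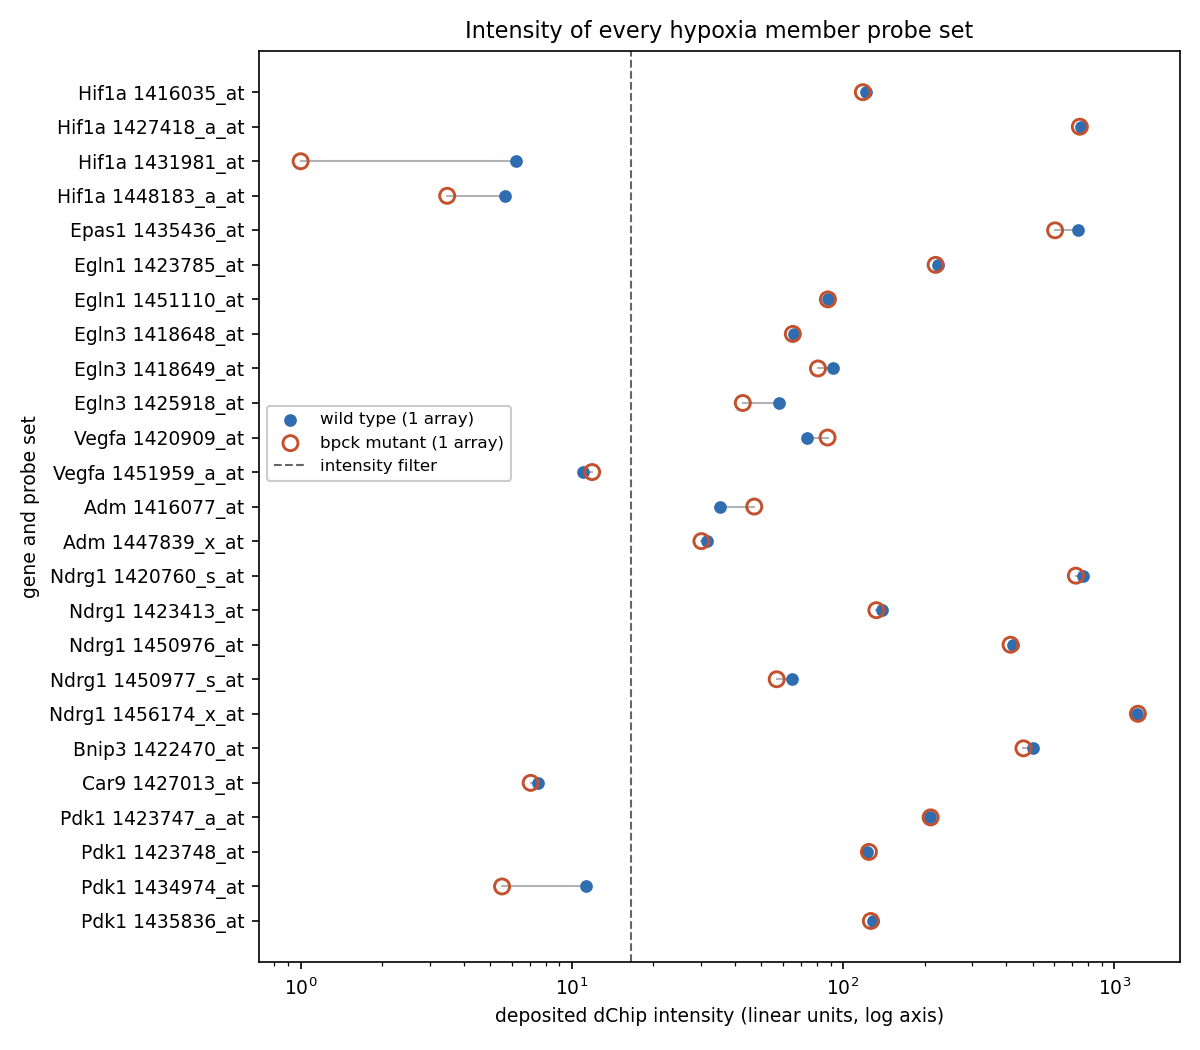
Deposited intensity of each of the 25 member probe sets in the wild-type array (filled circles) and the mutant array (open circles), on a log axis, 1 array per group, with the filter of 16.53 as a dashed line. The circles overlap for most probe sets of Hif1a, Egln1, Ndrg1 and Pdk1 above the filter, while 5 probe sets lie below it in both arrays.

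The transcript of Hif1a, the oxygen-regulated subunit of the classical factor, was nearly the same in both arrays. The brightest of its probe sets gave 757 for wild type and 747 for mutant, and another read 122 and 118, so both lay within 1.03-fold. The remaining 2 probe sets of Hif1a were dim. They read 6.23 and 1, and 5.67 and 3.47, with the mutant values under the floor of 4.2 set for this comparison. Against that floor they were at least 1.48-fold and at least 1.35-fold lower in the mutant array, but neither reached the filter.

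Epas1, the alpha subunit named for its expression in endothelium, was lower in the mutant array. Its single probe set gave 738 for wild type and 605 for mutant, a difference of 1.22-fold or -0.29 on the log2 scale. In the authors' deposited table this probe set has a signed fold of -1.22 with bounds of -1.18 and -1.26, and these bounds cover the spread of probes on the arrays and not that of animals. The difference was -0.21 with array medians set equal and -0.30 after quantile scaling. Of 12 endothelial markers, 9 were lower and 3 higher in the mutant array, while 51.9% of all genes were lower. Their median log2 difference was -0.16, and their summed intensity was 2602 in wild type and 2368 in mutant. Only 1 of the 12 was at least 1.2-fold lower, compared with 11.2% of all genes. With array medians set equal 8 were lower, around a median of -0.09, while 35.2% of all genes were lower. Fewer endothelial cells and less RNA per cell cannot be told apart in whole-kidney RNA, and their part in the Epas1 value was not tested.

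The oxygen sensors differed from each other. Egln1, the hydroxylase that sets HIF levels in most tissues, read 223 and 219.5 on 1 probe set and 88.2 and 87.9 on the other, within 1.02-fold. Egln3, a hydroxylase whose own gene is a HIF target, was measured by 3 probe sets that spread from -0.45 to -0.01 on the log2 scale. They read 58.1 and 42.7, 91.8 and 80.8, and 65.9 and 65.3 in wild type and mutant. The first pair was 1.36-fold lower in the mutant array, the second 1.14-fold lower, and the third within 1.01-fold. The SD between these probe sets was 0.22, compared with a median of 0.13 over the 5269 genes read by more than 1 probe set, so the size of the Egln3 difference depends on the probes read.

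**Figure D2:**
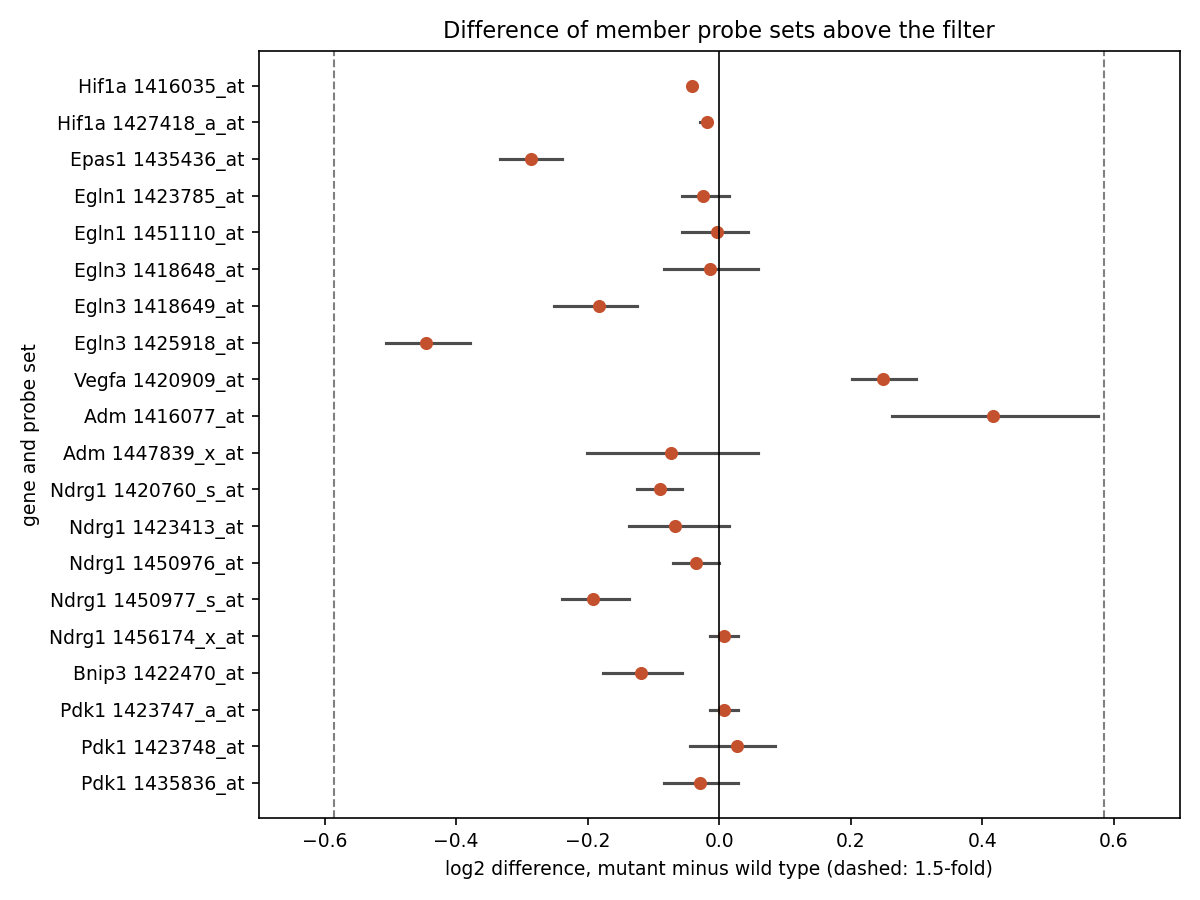
Log2 difference, mutant minus wild type, of the 20 member probe sets above the filter, with bars for the bounds given in the authors' deposited table and dashed lines at 1.5-fold. All 20 points lie inside the dashed lines, from -0.45 for a probe set of Egln3 to 0.42 for a probe set of Adm, and the bars hold no variation between animals.

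Vegfa and Adm, secreted peptides that act on blood vessels, each had a probe set above the filter that was more than 1.1-fold higher in the mutant array. Vegfa, the growth factor made by podocytes and tubules that maintains glomerular capillaries, gave 73.8 for wild type and 87.7 for mutant, a 1.19-fold higher value. Its other probe set, below the filter, read 10.95 and 11.9. Markers of podocytes, a main source of Vegfa in the kidney, were lower in the mutant array for 8 of the 8 measured. The median log2 difference of these markers was -0.44, and their summed intensities were 1875 in wild type and 1368 in mutant. Proximal tubule markers were higher for 6 of 9, with a median of 0.28. Of all genes, 51.9% were lower and 48.0% higher. The part of these cell types in the Vegfa value was not tested.

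Adm encodes adrenomedullin, a vasodilator peptide. On its brighter probe set it gave 35.3 for wild type and 47.1 for mutant, a 1.33-fold higher value. Its other probe set read 31.6 and 30.05, a 1.05-fold lower value, so the 2 probe sets of this gene did not give the same picture. The authors' deposited table gives the first a signed fold of 1.33 with bounds of 1.2 and 1.49. Adrenal tissue, a known source of this peptide, differed between the samples: chromaffin markers were lower in the mutant array for 5 of 5, their summed intensity being 376 in wild type and 31.7 in mutant. All 5 of these markers reached the filter in the wild-type array only. None of them was at 0, and Chga and Scg2 were under the floor in the mutant array. The part of adrenal tissue in the values of the 2 Adm probe sets was not tested.

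Ndrg1, a stress-responsive gene widely used as a hypoxia marker, had 5 probe sets that read from 65.1 to 1216 in wild type and from 57.0 to 1223 in mutant. Their log2 differences ran from -0.19 to 0.01. The largest was on a dim probe set, 65.1 and 57.0, and the brightest, 1216 and 1223, lay within 1.01-fold. Bnip3, a mitochondrial outer membrane protein that triggers removal of mitochondria, gave 503 for wild type and 463 for mutant, within 1.09-fold. Its promoter, printed above, held the most matches to the HIF core among the windows shown.

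Pdk1, the kinase that shuts off pyruvate dehydrogenase and so diverts pyruvate from mitochondria, lay within 1.03-fold on all 3 probe sets above the filter. They read 209 and 210.4, 122 and 125, and 129 and 127 in wild type and mutant. The remaining, dim probe set read 11.2 and 5.53, a 2.03-fold lower value in mutant that did not reach the filter. Car9, a membrane carbonic anhydrase that is among the most HIF-dependent genes known in human tumours, was dim in both arrays, at 7.5 for wild type and 7.05 for mutant, and so below the filter in each.

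Across the 20 probe sets above the filter the median log2 difference was -0.03, compared with -0.02 over all 21422 probe sets with 1 gene above the filter. As deposited, 5 were higher and 15 lower in the mutant array, compared with 46.4% and 53.6% of all such probe sets. With array medians set equal 14 were higher and 6 lower, but 64.8% of all genes were then higher as well. After quantile scaling the median over member probe sets was again -0.03. The count by direction thus depends on the scaling of the arrays. With a stricter filter at the 75th percentile of all values (83.51) 15 member probe sets were left, and 3 of them were at least 1.1-fold apart, compared with 37.1% of all such probe sets. Several of these probe sets read the same gene and are not independent. The median size of the difference, regardless of direction, was 0.05 for members and 0.13 for all probe sets above the filter.

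**Figure D3:**
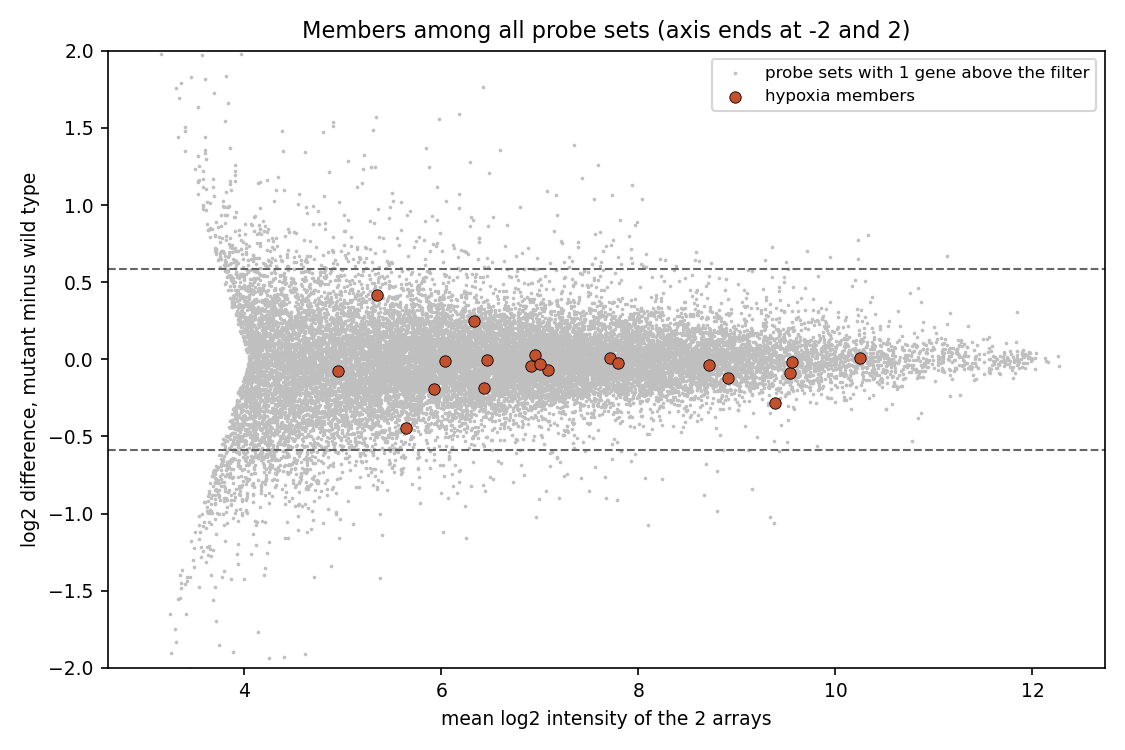
Log2 difference against mean log2 intensity of the 2 arrays for all 21422 probe sets with 1 gene above the filter (grey) and the 20 member probe sets (large points), with dashed lines at 1.5-fold. The axis ends at 2 on the log2 scale in each direction and leaves out 37 grey points. All 20 members lie between the dashed lines, and the 3 members at least 1.2-fold apart are Epas1 and 1 probe set each of Egln3 and Adm.

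Other genes of the pathway were read on 1 probe set per gene, the brightest above the filter. Of 89 listed genes that are not members, 80 passed the filter, and 47 were higher and 33 lower in the mutant array. Of all genes, 48.0% were higher and 51.9% lower. Past 1.5-fold, 1 of the 80 stood on the higher side, Hif3a, and 1 on the lower side, Pdp1, compared with 2.02% and 2.58% of all 13149 genes above the filter.

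Of the 5 HIF subunits, 2 were higher and 3 lower, around a median of -0.02, and this turned to 3 higher and 2 lower when array medians were equal. Hif3a, an alpha subunit with forms that restrain the other factors, gave 35.8 for wild type and 54.9 for mutant on its brightest probe set, a 1.53-fold higher value. A dimmer probe set of Hif3a read 17.7 and 11.9, 1.49-fold lower. That probe set reached the filter in the wild-type array only, so its direction is partly set by the filter. Arnt, the common partner subunit, read 136.5 and 119.7, 1.14-fold lower, and its 4 probe sets above the filter ran from -0.70 to 0.04 on the log2 scale. The lowest of them (23.4 and 14.4) likewise reached the filter in the wild-type array only. Arnt2, a neural and renal relative of Arnt, lay within 1.03-fold.

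Genes of oxygen sensing and HIF degradation were close to equal. Of 12 genes, 5 were higher and 7 lower, around a median of -0.02, and this turned to 10 higher and 2 lower when array medians were equal. With that scaling 64.8% of all genes were higher. Vhl gave 158 for wild type and 176 for mutant, a 1.11-fold higher value, and its other probe set also lay higher. Egln2, the third hydroxylase, read 172 and 153, 1.12-fold lower. Hif1an, which blocks the transactivation domain of the alpha subunits, was within 1.05-fold. The member of this list farthest from 0 was Cited2, a HIF target that competes for its coactivator, with 362 and 436, 1.2-fold higher on 1 probe set and higher on the other as well.

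The genes listed as receptors of the VEGF and adrenomedullin families read lower in the mutant array, on the opposite side from Vegfa and the brighter Adm probe set. Flt4 and Ramp1 are counted here as members of these receptor families, not as receptors of Vegfa or Adm. Ligands and receptors were listed together and divided after their values were seen, so the shared direction of the receptors is a description and no test. All 8 receptor genes above the filter were lower as deposited, with array medians set equal and after quantile scaling. Of all genes, 51.9%, 35.2% and 49.5% were lower under these scalings. The median log2 difference of the receptors was -0.22. Calcrl, the adrenomedullin receptor, gave 470.2 for wild type and 371 for mutant, 1.27-fold lower, and its partner Ramp2 read 364 and 297, 1.22-fold lower. Nrp2, a coreceptor for VEGF, read 113 and 89.6, 1.26-fold lower on its brightest probe set, while another probe set lay within 1.01-fold. Kdr and Flt1, the signalling receptors for Vegfa, read 405 and 362, and 119 and 111. Other Flt1 probe sets above the filter read 58.0 and 44.6, and 30.5 and 17.4. At least 1.2-fold lower were 4 of the 8 receptors, Ramp1 (26.5 and 21.9) among them, compared with 11.2% of all genes. Kdr and Flt1 are also 2 of the 12 endothelial markers given above, and the part of endothelial cell number in these receptor values was not tested. The ligands were divided: Vegfb was higher with Vegfa and Adm, whereas Vegfd was lower. Vegfc was lower on its brightest probe set (123.5 and 114.5), but its other probe sets above the filter were higher, by up to 0.23 on the log2 scale.

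Glucose uptake and glycolysis genes controlled by HIF were higher for 14 of the 16 above the filter, with a median of 0.14, and for 15 with array medians set equal. Of all genes, 48.0% were higher as deposited and 64.8% with array medians set equal. The glucose transporter Slc2a1 gave 330.2 for wild type and 379 for mutant, a 1.15-fold higher value. Aldoc, an aldolase of glycolysis, was 1.28-fold higher (42.2 and 53.8) and Pfkfb3, which makes the activator of phosphofructokinase, 1.24-fold higher (50.1 and 62.2). The phosphofructokinase subunits Pfkp and Pfkl were 1.23-fold and 1.22-fold higher on the probe sets read, although a second probe set of Pfkl lay at -0.01. At least 1.2-fold higher were 4 of the 16, compared with 9.89% of all genes. Hk2, the inducible hexokinase, was close (29.1 and 31.9), Ldha was within 1.03-fold (2160.1 and 2222) and Pgk1 within 1.02-fold (1600 and 1617). The exceptions, Pfkfb4 (34.8 and 30.4) and Gpi1 (1321 and 1318), were named after their values were seen.

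Further HIF targets were higher for 22 of the 29 above the filter, with a median of 0.09, while 48.0% of all genes were higher. With array medians set equal 28 were higher, while 64.8% of all genes were. Igfbp1, a secreted binding protein for insulin-like growth factors, was 1.32-fold higher (54.9 and 72.7) and its relative Igfbp3 1.25-fold higher (785 and 978). Ankrd37, a small HIF target, was 1.31-fold higher (29.5 and 38.5) and Hmox1, the haem-degrading enzyme, 1.24-fold higher (44.5 and 55.3). At least 1.2-fold higher were 6 of the 29 and at least 1.2-fold lower was 0, compared with 9.89% and 11.2% of all genes. Bnip3l, the partner of Bnip3 in mitochondrial clearance, read 583 and 617 on the brightest of 3 probe sets, which ran from -0.25 to 0.08 on the log2 scale. Ddit4, an inhibitor of growth signalling, read 314 and 305. Car12, a relative of Car9 present in kidney tubules, read 287 and 322, 1.12-fold higher, with its other probe set at -0.03. Epo, the kidney's hormone for red cell formation, and Ramp3, another receptor partner, were not analysed here.

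Pdk1 and its relatives differed in direction among themselves. Pdk4, the kinase induced by fasting, was 1.23-fold higher in mutant (134.6 and 166), Pdk3 was 1.05-fold higher (109.6 and 115) and Pdk2 was 1.11-fold lower (42.1 and 38.1). Pdhx, a structural subunit of the complex, was 1.11-fold lower (63.6 and 57.3). Pdp1, the phosphatase that reverses the action of these kinases, differed far more than any other gene in the lists of the pathway. Its 2 probe sets read 47.4 and 12.6, and 47.7 and 2.3, so the first was 3.76-fold and the second at least 11.4-fold lower in the mutant array. Both reached the filter in the wild-type array only, so their shared direction is partly set by the filter. Pdp2, the other phosphatase, read 60.6 and 56.5. Over the 9 genes of this list above the filter the median was -0.05, 4 lying higher and 5 lower, or 5 higher and 4 lower when array medians were equal.

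In the Ndrg family the member Ndrg1 lay within 1.01-fold on its brightest probe set, whereas Ndrg2, a gene of differentiated epithelia, was 1.23-fold lower (127 and 103) and Ndrg4, known mainly from brain and heart, 1.24-fold lower (119 and 96.5). Ndrg3 read 196 and 185.

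**Figure D4:**
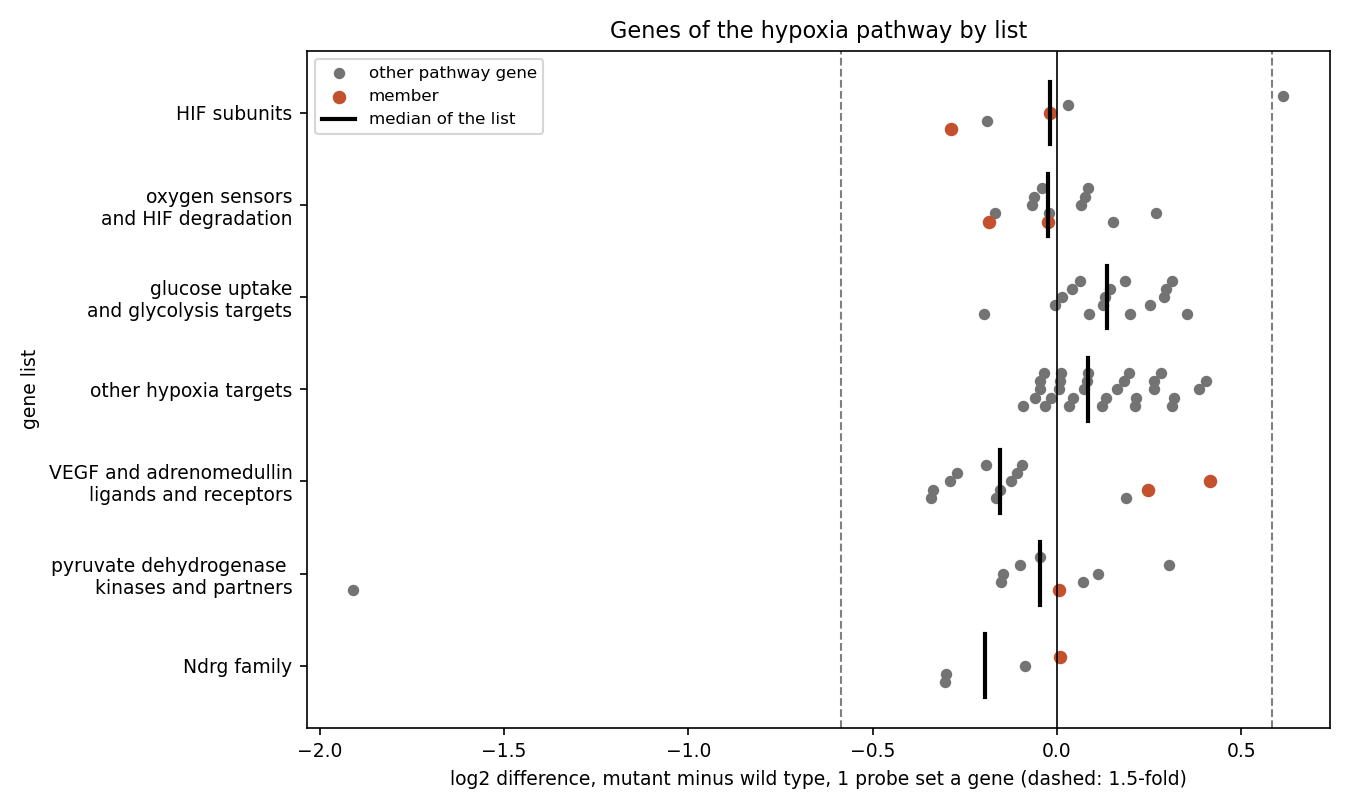
Log2 difference, mutant minus wild type, of each pathway gene above the filter, 1 probe set a gene, with members in colour, medians of the lists as vertical bars and dashed lines at 1.5-fold. Glycolysis and other target genes lie mostly to the right of 0 and receptors to the left, and the points outside the dashed lines are Hif3a and Pdp1, the latter at -1.91.

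The samples also differed in sex-linked and adrenal transcripts and in markers of several cell types, and the part of these differences in the values above was not tested. Xist, the RNA of X inactivation in females, gave 4.67 for wild type and 1113 for mutant. The 4 Y-linked genes measured were lower in the mutant array but kept signal there. Ddx3y read 393.5 and 84.2 in wild type and mutant, Eif2s3y 279.7 and 63.8, and the lowest in the mutant, Kdm5d, 80.1 and 16.3. The mutant array thus held both Xist and Y-linked signal, and the labels state no sex. Sex-linked expression and genotype cannot be told apart. Of 5 adrenal cortex markers, 3 reached the filter, all in the wild-type array only, so their shared direction is partly set by the filter. These were lower in the mutant array, with summed intensities of 259.7 and 20.1. Below the filter, Cyp11a1 read 5.69 and 9.7 and Cyp21a1 14.2 and 10.1 in wild type and mutant, on their brightest probe sets. Kidney markers were present in both arrays, for example Slc34a1, a proximal tubule phosphate transporter, at 1099 and 1374. Among other cell markers the median log2 difference was 0.53 for 5 macrophage genes, 0.82 for 4 nephron progenitor genes, 0.31 for 6 principal cell genes and 0.64 for 4 fat genes. The fat genes were split: Ucp1 and Cidea were higher (1.76 and 1.34), and Adipoq and Fabp4 lower (-0.39 and -0.07). Of the principal cell genes 4 were higher and 2 lower, and of the nephron progenitor genes 3 were higher and 1 lower. The progenitor gene Gdnf (13.7 and 25.0) and the fat gene Cidea (15.4 and 39.0) reached the filter in the mutant array only. The direction of both, and so the medians of their lists, is partly set by the filter. The median was -0.41 for 4 intercalated cell genes, -0.60 for 3 erythroid genes, -0.15 for 6 stromal genes and -0.09 for 5 genes of the thick ascending limb. In each of the last 3 lists 1 gene was higher. Slc4a1 (122.7 and 76.9) was counted in both the intercalated cell and the erythroid list, so the medians of these lists are not independent.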

How the data were processed

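RNA from kidney was read for 1 wild-type and 1 mutant sample on Affymetrix Mouse430_2 arrays. Intensity was deposited on a linear scale and comes from dChip, which the authors ran, per the series' design text. The deposited signed fold and its bounds are a score, negative where the mutant value was lower, and Affymetrix control probe sets are absent, per the file headers. For background subtraction and normalization between arrays the sources used here give no method. The number of arrays limits the precision. Both deposited files held equal intensities in all 45037 probe sets.

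Genes were taken from the deposited annotation. Outside the 10 members, symbols were updated through the RefSeq table (GRCm38.p6), which matched 34316 of 37579 probe sets with 1 gene. The 1467 with several genes and 5991 with none were not used. Values below 4.2, the 20th percentile over both arrays, were raised to it before taking log2, and mutant minus wild type was computed in Python 3.11.15 with numpy 2.4.6 and pandas 2.3.3. Against such a raised value, only a lower bound of the fold is given. Probe sets passed the filter with 16.53 or more, the median of all values, in at least 1 array, which left 20 of the 25 members. The code for the 1.5-fold rule was tried on simulated data, with changes placed in bright probe sets and little noise added. That trial does not measure how often the rule errs on these arrays.

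The members and the gene lists were chosen with earlier results of these data known. Named genes were all members, up to 4 genes of each list farthest from 0, and a fixed set of sensors, receptors, kinases and targets. The 14 lists of cell markers covered other cell types, sex and adrenal tissue. Alternatives changed the scaling (array medians set equal, quantile), the floor (none, the 40th percentile, or a pseudocount of 32), the filter (none, or the 75th percentile), the probe sets (their mean, or none with the suffixes _x_at, _s_at and _a_at), the threshold (1.2-fold or 2-fold) and the source (the series matrix).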

Additional observations from a re-analysis of the deposited data

How the results depend on the processing

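Values were called moved where they shifted by at least 0.13 on the log2 scale, the median SD between probe sets of a gene, and counts where they changed by more than 1.5 times. At 1.5-fold the counts of member probe sets were 0 higher and 0 lower, which became 1 higher and 2 lower at 1.2-fold. Without the filter 1 was lower, a dim probe set of Pdk1. The median over member probe sets ranged from -0.04 to 0.04 and that over member genes from -0.04 to 0.05, the positive values coming from array medians set equal. Of 89 values for single member genes under the alternatives, 87 stayed within that SD, and the other 2 were those of Adm, 0.23 with a pseudocount of 32 and 0.17 as the mean of its probe sets. Many of the 87 could not have moved. The other floors, the filters and the series matrix returned the same values for the brightest probe sets. Setting array medians equal shifted each by 0.07, less than 0.13. The count of 87 is therefore no measure of stability. Epas1 ranged from -0.30 to -0.21, Vegfa from 0.18 to 0.32 and Egln3 from -0.21 to -0.11, while Hif1a, Egln1, Ndrg1 and Pdk1 took either sign. No paired analysis was possible because each group had 1 array. Dim probe sets, those of Car9 among them, limit what can be read near background.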

Other observations

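A further probe set annotated to Epas1 together with a second, similar gene was left out of the comparison because it names more than 1 gene. It read 10.7 in wild type and 9.48 in mutant, both below the filter.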
